A study of Mus musculus with 12 samples.

Results

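The m6A peaks of the chromosome around *Tyrobp* were examined, that is, every peak lying wholly within 5 Mb of either end of the gene, on chromosome 7 between positions 25413760 and 35417585 (GRCm38). The rule used position alone. It took 326 of 33622 peaks in the WT list, 343 of 34935 peaks in the *Tyrobp*-/- (*Tyrobp* KO) list and 53 of 5640 rows of the table in which the authors compared the genotypes, 722 of 74197 rows in all. *Tyrobp* itself runs from 30413760 to 30417585, and no row of any of the 3 tables overlapped it or was named after it.

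The peaks come from MeRIP-seq of the hippocampus of male mice aged 6 months, either *Tyrobp*-/- or WT littermates. Each genotype had 3 samples, each sample pooled the RNA of 3 mice, and each sample gave an immunoprecipitated (IP) and an input library of poly(A) RNA, 12 libraries with 61189368 to 73554506 valid reads each. The *Tyrobp*-/- line was made with a TALEN that removes bases from exon 2 in fertilized eggs, its founders were bred with C57/BL6 mice, and the mutant offspring were intercrossed. Knockout mice therefore carry the stretch of chromosome next to the edited gene on both copies. The strain of the eggs is not stated, so whether that stretch differs from the one in WT mice is unknown. An effect of *Tyrobp* loss and an effect of inherited sequence beside the gene cannot be told apart here.

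m6A is a methyl mark on adenosine, written on mRNA by a complex around METTL3 and METTL14 and read by proteins that affect splicing, export, decay and translation. It lies mostly in long exons and near the stop codon, often within the letters GGAC, most typically GGACT. TYROBP (DAP12) is the signalling adaptor that microglia, the resident macrophages of the brain, use downstream of receptors such as TREM2. HCST (DAP10), the adaptor encoded next to it, serves related receptors.

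A peak is a stretch where IP reads exceed input reads, and its fold enrichment is the ratio of IP over input. Peaks were called on the 3 replicates of a genotype together, so a peak has 1 value per genotype, with no replicate spread, and no difference between genotypes could be tested from the lists. Reads per peak were not used here, so the depth behind a single peak is unknown. Intervals below are exact 95% binomial intervals (Clopper-Pearson) and cover counting error only. Peaks of 1 gene, and of overlapping gene models, share reads: the 326 WT peaks formed 301 separate stretches, the 343 *Tyrobp* KO peaks 311, and the lists together 352. As a check of the tissue, all 4 neuron markers looked up (*Snap25*, *Syt1*, *Grin1*, *Rbfox3*), the 3 markers of hippocampal excitatory neurons, of astrocytes and of oligodendrocytes, and 3 of 4 microglia markers had a peak in each list. *Trem2* was the microglia marker with none. Some peaks were listed with a high peak-calling FDR, as counted below, so a listed peak does not by itself show that the transcript was enriched. The absence of a peak does not show that the gene is silent.

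The start of a transcript is where sequence could be set beside the peaks, since the RefSeq table (GRCm38.p6) gives the first 50 bases after each annotated start. It holds 330 starts of 273 genes in this region, and 36 of these starts, in 35 genes, lay under a peak of the same gene. The letters GGAC, the core of the m6A context, were searched on the strand of the gene. They occurred in these 50 bases at 18.9% of all 32851 starts of the table, at 26.4% of the 330 starts around *Tyrobp* and at 9 of the 36 starts under a peak. The 4 stretches below, each within a peak described further on, show what lay under peaks of contrasting behaviour, with GGAC in capitals and the text 5′ to 3′.
*Capns1* (chr7:30195125-30195152, minus strand, under the strongest WT peak and its *Tyrobp* KO partner): atggaggctctaGGACcgcgcagacgac
*Supt5* (chr7:28338670-28338693, minus strand, under the WT peak, outside the shorter *Tyrobp* KO peak): tgagcgggcgtgGGACggcaggca
*Syne4* (chr7:30314840-30314865, plus strand, under a peak of the WT list with no partner): ctcagtagcctcGGACttaggctgtg
*B3gnt8* (chr7:25627632-25627659, plus strand, under a peak of the *Tyrobp* KO list with no partner): ccgacagcttgaGGACgcacagctgcga
Among the 4, the base after GGAC was T in *Syne4*, C in *Capns1* and G in *Supt5* and *B3gnt8*. A match is a description of the letters and does not place a methylated base.

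The genes directly beside *Tyrobp* had no peak, and the peaks nearest to it had nearly the same enrichment in both genotypes. RefSeq lists 20 genes within 100 kb of *Tyrobp*, *Tyrobp* included, of which 11 are protein-coding, and 7 of these had a peak in either list, near the 62.0% of protein-coding genes over the genome. *Hcst*, whose gene lies 0.127 kb from *Tyrobp*, had none, nor had *Nfkbid*, which encodes a nuclear regulator of NF-kB, and *Prodh2*, an enzyme of hydroxyproline breakdown. The nearest peak lay in the 3′ UTR of *Aplp1*, a member of the amyloid precursor protein family, 17.5 kb from *Tyrobp*, with a fold enrichment of 2.49 in WT and 2.30 in *Tyrobp* KO mice. The long 3′ UTR peak of *Kirrel2*, an adhesion molecule of the nephrin family, had 8.92 in WT and 9.37 in *Tyrobp* KO mice. Both peaks stood at almost the same value in the lists. *Kirrel2* had a further peak in the *Tyrobp* KO list alone, in its first exon, of 9.53 with a log10 FDR of -3.91.

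*Lrfn3*, which encodes a leucine-rich adhesion protein of synapses, was the neighbour whose enrichment differed most upward. Its 3′ UTR peak, 58.1 kb from *Tyrobp*, had a fold enrichment of 6.48 in WT and 16.8 in *Tyrobp* KO mice, a ratio of 2.59. Its peak in the coding exon had 11.0 and 11.9, and its 5′ UTR peak 8.13 and 8.78. The higher value therefore belonged to 1 of the 3 peaks of this gene, over a peak of 417 exonic bases in WT and 566 in *Tyrobp* KO mice. Of the other neighbours, *Alkbh6*, a relative of the m6A demethylase ALKBH5, had a 3′ UTR peak of 6.36 in WT and 5.29 in *Tyrobp* KO mice and a 5′ UTR peak of 1.59 and 1.93. *Syne4*, which links the nucleus to the cytoskeleton, had a 3′ UTR peak of 5.66 in WT and 2.59 in *Tyrobp* KO mice, and its 5′ UTR peak of 12.7 stood in the WT list alone, with a log10 FDR of -2.30. *Nphs1*, which encodes nephrin, had 17.6 in WT and 8.58 in *Tyrobp* KO mice at its 5′ UTR, with a log10 FDR of -3.61 and -0.992. It had 2 more peaks in the *Tyrobp* KO list alone, of 7.62 and 6.67, with a log10 FDR of -0.762 and -0.538. *Sdhaf1*, an assembly factor of respiratory complex II, had 1 peak, of 6.84, in the WT list with a log10 FDR of -0.56, and that peak lies outside the gene as RefSeq places it. The RefSeq span of *Sdhaf1* was covered in both lists by peaks that the authors' annotation gives to the overlapping *E130208F15Rik*, a name added after its values were seen. These peaks overlap each other and went opposite ways. The higher had 8.18 in WT and 11.1 in *Tyrobp* KO mice, the lower 7.22 and 5.01. The lower values of *Syne4* and *Nphs1* thus rest on weakly called peaks.

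Peaks were spread unevenly over the region, in the same way in both lists. Below *Tyrobp*, towards lower coordinates, lay 244 of the 326 WT peaks and 262 of the 343 *Tyrobp* KO peaks, and above it 82 and 81. The longest stretch with no peak in either list ran over 2.94 Mb, from 31170642 to 34109602, where all 35 protein-coding genes that RefSeq places wholly within it are secretoglobins (*Scgb1b* and *Scgb2b*), small secreted proteins of glands. The next, of 1.34 Mb from 25820655 to 27158657, holds 17 protein-coding genes, 12 of them *Cyp2* genes of the cytochrome P450 family and the others *Nlrp* and vomeronasal receptor genes. Over the whole region, 142 of 243 RefSeq protein-coding genes (58.4%) had a peak in either list, against 62.0% of 21896 genes over the genome.

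**Figure D1:**
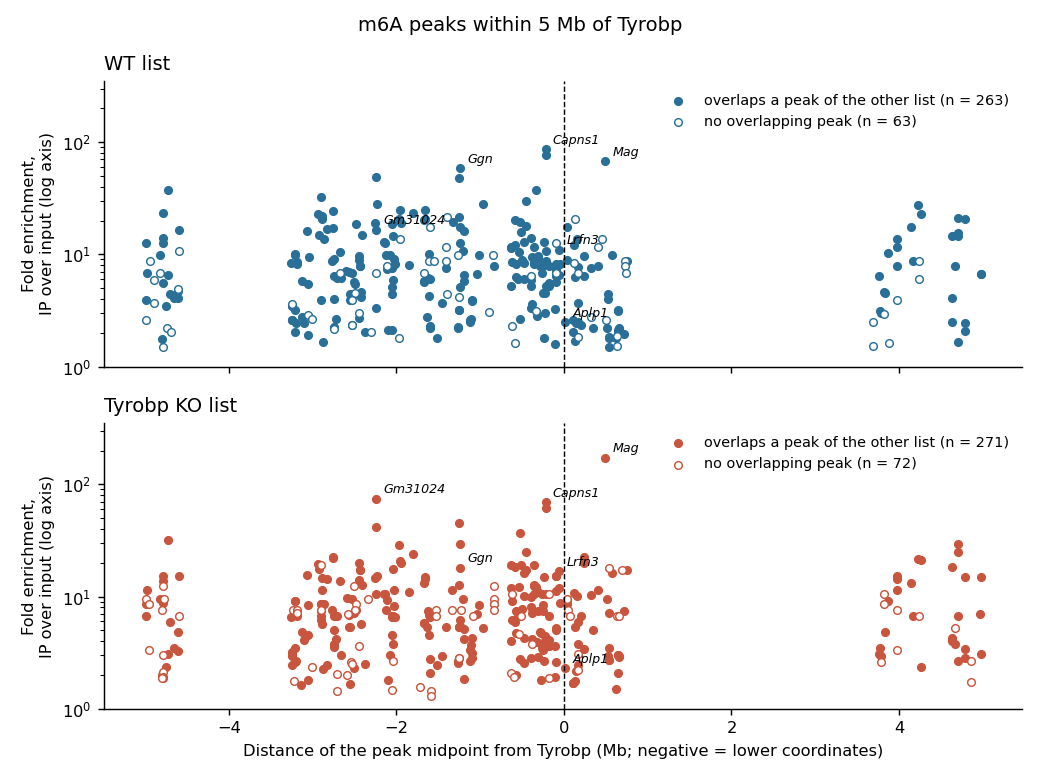
Fold enrichment of IP over input (log axis) of each m6A peak against the distance of its midpoint from *Tyrobp* (Mb, dashed line at the gene), for the WT list (blue, 326 peaks) and the *Tyrobp* KO list (red, 343 peaks). Filled points overlap a peak of the other list (263 and 271), open points do not (63 and 72), and both lists are empty between about 1 and 3 Mb above the gene.

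The strongest peaks were largely those of the same genes in both genotypes. *Capns1*, which encodes the regulatory subunit of calpain proteases, had the highest value in the WT list, 86.8, and 69.4 in the *Tyrobp* KO list. A second, overlapping *Capns1* peak had 77.2 and 61.9, and is not independent of the first. The peak in an exon of *Mag*, the myelin-associated glycoprotein of oligodendrocytes, had 67.9 in WT and 173 in *Tyrobp* KO mice, the highest value of the *Tyrobp* KO list in this region. *Ggn*, a gene known from germ cells, came next in WT mice with 58.6, against 18.1 in *Tyrobp* KO mice. *Fbl*, which encodes the nucleolar RNA methyltransferase fibrillarin, had 48.8 and 41.6 in an internal exon. *Spred3*, an inhibitor of Ras-MAPK signalling, had 47.9 and 44.8 in its 3′ UTR, and *Gm31024*, a predicted gene on the strand opposite *Fbl*, had 16.6 and 74.3. The peaks of *Capns1*, *Fbl* and *Spred3* thus differed by little, while *Mag* and *Gm31024* were higher and *Ggn* lower in *Tyrobp* KO mice. Median fold enrichment was 6.79 in the WT and 6.67 in the *Tyrobp* KO peaks of the region, against 5.54 and 5.72 over the whole lists. The share of peaks with a peak-calling FDR below 1e-5 was 65.3% and 62.7% in the region, against 64.4% and 63.3% over the lists. An FDR of 0.05 or more was listed for 36 WT peaks (11.0%) and 46 *Tyrobp* KO peaks (13.4%), against 10.3% and 11.0% over the lists.

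The peaks lay in similar parts of transcripts to peaks elsewhere, with 3′ UTRs the largest class. Of the WT peaks, 145 (44.5%, interval 39.0% to 50.1%) were annotated to the 3′ UTR, and of the *Tyrobp* KO peaks 160 (46.6%, interval 41.3% to 52.1%), against 47.2% and 49.3% over the whole lists. The 5′ UTR held 20.2% of WT and 20.1% of *Tyrobp* KO peaks, against 18.9% and 17.3%. Exons other than the first held 27.3% of WT peaks (interval 22.5% to 32.5%), against 22.4% over the whole list, whose value lies just outside that interval. In *Tyrobp* KO mice this share was 25.4%, with the value of the whole list, 21.7%, inside the interval of 20.8% to 30.3%. First exons held 7.98% of WT peaks (interval 5.28% to 11.5%) and 7.87% of *Tyrobp* KO peaks (interval 5.25% to 11.2%), against 11.5% and 11.6% over the whole lists, the latter above its interval.

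**Figure D2:**
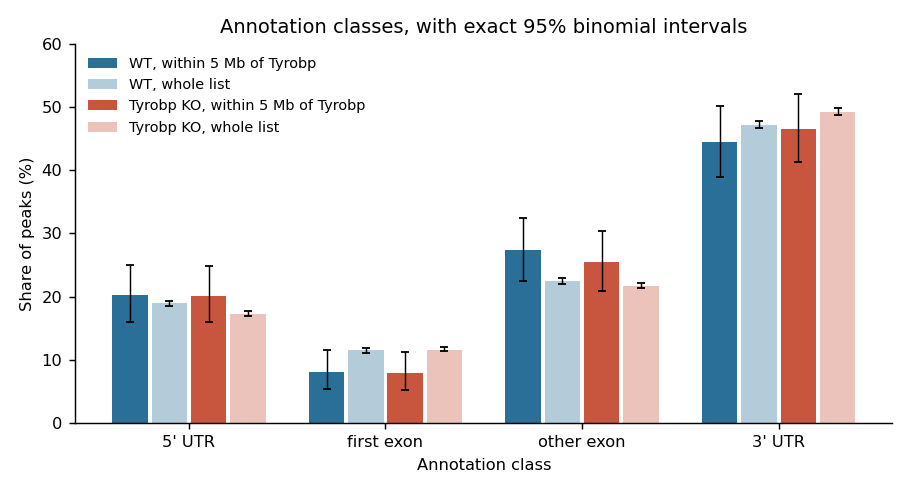
Share of peaks (%) in each annotation class for the WT (blue) and *Tyrobp* KO (red) lists, within 5 Mb of *Tyrobp* (dark bars) and over the whole list (pale bars), with exact 95% binomial intervals. In each of the 4 classes the intervals of the 2 genotypes within the region overlap, and the 3′ UTR is the largest class, at 44.5% and 46.6%.

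Whether a peak of a genotype was also present in the other was asked by overlap of at least 1 bp. Of the WT peaks of the region, 263 (80.7%, interval 76% to 84.8%) overlapped a *Tyrobp* KO peak, against 80.0% of all WT peaks of the series. Of the *Tyrobp* KO peaks, 271 (79.0%, interval 74.3% to 83.2%) overlapped a WT peak, against 77.9% of all *Tyrobp* KO peaks. Both shares were close to those of the whole lists, which lie within the intervals. By gene, 147 genes had a peak in both lists, 18 in the WT list alone (10.9% of its genes, against 10.2% over the series) and 14 in the *Tyrobp* KO list alone (8.70%, against 12.2%). Of these 32 genes, 22 had no peak that touched one of another gene in the other list, and 3 of the 22 reached a peak-calling FDR below 1e-5. They were *Hspb6*, a small heat shock protein, in the WT list, and *Snrpa*, a spliceosome protein, and *Gpatch1*, an RNA helicase cofactor, in the *Tyrobp* KO list, with *Snrpa* and *Gpatch1* named after their values were seen.

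The peaks without a partner were short and mostly weakly called, as they were over the whole lists. In the WT list they were 63, with a median of 179 exonic bases against 390 in the peaks with a partner, and 17.5% had an FDR below 1e-5 against 76.8%. In the *Tyrobp* KO list they were 72, with a median of 150.5 exonic bases against 389, and 13.9% had an FDR below 1e-5 against 75.6%. The highest in the WT list was a peak of 121 bases in an exon of *Ryr1*, the calcium release channel of muscle, at 21.5. It was followed by *Hspb6* at 20.5, the noncoding gene *Gm44702* at 17.6, the 5′ UTR of *Lrfn1*, a synaptic adhesion protein, at 13.7, and the 5′ UTR of *Cd22*, a sialic acid-binding receptor of B cells and microglia, at 13.7. In the *Tyrobp* KO list the highest were *Prx*, which encodes periaxin of peripheral myelin, at 19.1, the noncoding gene *Gm17077* at 18.1, *Hpn*, a membrane serine protease, at 17.2, and *B3gnt8*, a glycosyltransferase, and the zinc finger gene *Zfp974*, both at 12.4. Of these 10 peaks, the log10 FDR was -7.32 for *Hspb6* and between -4.69 and -2.25 for the others. They were picked by fold enrichment, and some peaks without a partner were called more firmly. Examples are *Zfp60* in the WT list (6.84, log10 FDR of -42.0) and *4732471J01Rik* in the *Tyrobp* KO list (3.31, log10 FDR of -40.7). These examples were named after their values were seen.

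Within the region, 243 pairs of overlapping peaks of the same gene, in 144 genes, allowed the enrichment to be set side by side. It was close to even. The median log2 ratio of *Tyrobp* KO over WT enrichment was -0.01, with 119 pairs higher and 124 lower in *Tyrobp* KO mice, against a median of 0.05 over all 24560 pairs of the series. Within 1.5-fold in either direction lay 70.8% of the pairs, against 70.1% over the series. At least 2-fold higher in *Tyrobp* KO mice were 15 pairs (6.17%), against 7.16% of all pairs, and at least 2-fold lower 20 pairs (8.23%), against 6.40%. Among the 184 pairs with an FDR below 1e-5 in both lists, 12 (6.52%) were at least 2-fold higher, against 4.61%, and 8 (4.35%) at least 2-fold lower, against 3.67%. These shares lie near those of the series. Across the 243 pairs the fold enrichments of the lists had a Spearman correlation of 0.847, against 0.783 over all pairs, where points of 1 gene share reads and all share the same pooled libraries.

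The largest values upward among the 184 pairs came from genes of unrelated function. *Gm31024* had the largest ratio, 4.48. *Gramd1a*, which encodes a sterol transfer protein, had 1.97 in WT and 7.50 in *Tyrobp* KO mice in its 3′ UTR. *Haus5*, a subunit of the augmin complex that builds microtubule arrays, had 6.42 and 22.4, over the same 329 exonic bases in both lists. The 5′ UTR peak of *Fbl* had 3.34 and 10.5, whereas its internal exon, given above, was lower in *Tyrobp* KO mice. *Cox6b1*, a subunit of cytochrome c oxidase, had 2.36 and 6.67, and the zinc finger gene *Zfp780b* had 8.85 and 19.9. The other 2 of the 8 were *Lrfn3* and *Mag*. The *Mag* peak had the same 181 bases in both lists and a ratio of 2.55. In bulk hippocampus, fewer cells of a type and less RNA per cell cannot be told apart, and the ratio of IP over input gives neither.

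The largest values downward were led by *Sipa1l3*, a relative of Rap GTPase-activating proteins. Its 5′ UTR peak had 28.3 in WT and 5.24 in *Tyrobp* KO mice, 5.40-fold lower, over 900 and 780 exonic bases. *Prx* had 32.2 and 7.43 in its 3′ UTR, over 1441 and 631 exonic bases, and the *Prx* peak of the *Tyrobp* KO list without a partner, given above, is another peak of that gene. *Ggn* was 3.24-fold lower. *Supt5*, a subunit of the DSIF transcription elongation factor, had 9.77 and 3.04, over 688 and 360 exonic bases, and the WT peak alone reached the transcript start shown above. *Kcnk6*, a potassium channel, had 16.1 and 5.11 in its 3′ UTR, and *Gm26920*, a predicted gene whose peak also lies on *Zfp566*, had 37.1 and 12.1 over the same 448 bases, so that reads of these overlapping genes may not be told apart. *Tgfb1*, the cytokine that maintains microglia, had 6.56 and 3.07 in its 5′ UTR, and the zinc finger gene *Zfp940* 12 and 5.92. In 6 of these 8 pairs the *Tyrobp* KO peak covered fewer exonic bases than its WT partner, as in *Ggn* with 537 against 715, and in 3 of the 8 largest rises it did so too. The part of peak length in these ratios was not tested. Of all 243 pairs, 28 had the same span in both lists, 2 of them at least 2-fold higher and 2 at least 2-fold lower, where the shares over all pairs of equal span in the series were 3.63% and 3.68%.

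**Figure D3:**
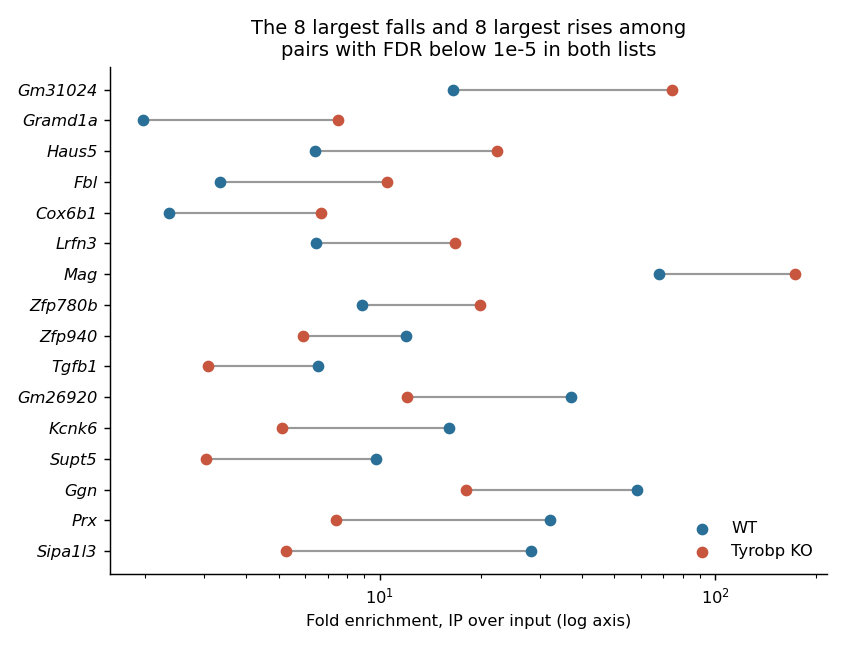
Fold enrichment of IP over input (log axis) in the WT (blue) and *Tyrobp* KO (red) lists for 16 pairs with an FDR below 1e-5 in both lists, the 8 highest and the 8 lowest by ratio, 1 line per pair. *Gm31024* has the widest gap upward, 16.6 to 74.3, and *Sipa1l3* the widest downward, 28.3 to 5.24.

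The ratio also varied among the peaks of 1 gene. Of 37 genes with at least 2 separate pairs at an FDR below 1e-5 in both lists, 19 had all pairs on the same side and 18 had pairs on both sides. The median gap between the lowest and the highest log2 ratio of a gene was 0.50, and it was 1 or more in 9 genes. The same counts over the series are not given here, so this variation cannot be called particular to the region. *Sipa1l3* ran from -2.43 to 0.06, *Gm26920* from -1.62 to 0.62, *Fbl* from -0.23 to 1.65 and *Lrfn3* from 0.11 to 1.37. Ratios near 0 have no error here, so a change of side between peaks of small ratio shows no difference.

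Over all pairs, the ratios had similar medians at every distance from *Tyrobp*. Within 1 Mb of the gene the 94 pairs had a median log2 ratio of 0.04, with quartiles of -0.32 and 0.44. The medians were -0.03 between 1 and 2 Mb (38 pairs), -0.08 between 2 and 3 Mb (52 pairs), -0.12 between 3 and 4 Mb (27 pairs) and -0.08 between 4 and 5 Mb (32 pairs). With an FDR below 1e-5 in both lists the medians ran from -0.12 between 3 and 4 Mb to 0.19 between 2 and 3 Mb. Within 1 Mb that median was -0.065, so the sign of a bin depended on the weakly called pairs. Of the 94 pairs within 1 Mb, 9 were at least 2-fold higher and 7 at least 2-fold lower. Above *Tyrobp* these were 7 and 1 of 32 pairs, and below it 2 and 6 of 62 pairs, beside the 7.16% and 6.40% of all pairs. With an FDR below 1e-5 in both lists they were 5 and 0 of 22 pairs above and 1 and 3 of 47 below. Over all pairs of the series at that limit the shares were 4.61% and 3.67%. The 7 are the pairs of *Haus5*, *Gramd1a*, *Cox6b1*, *Mag* and *Gm21982*, and of *Dmkn* and *Lsr*, whose WT peaks had a log10 FDR of -2.51 and -3.30. *Gm21982*, *Dmkn* and *Lsr* were named after their values were seen. The split was chosen for description after the values were known and has no test.

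**Figure D4:**
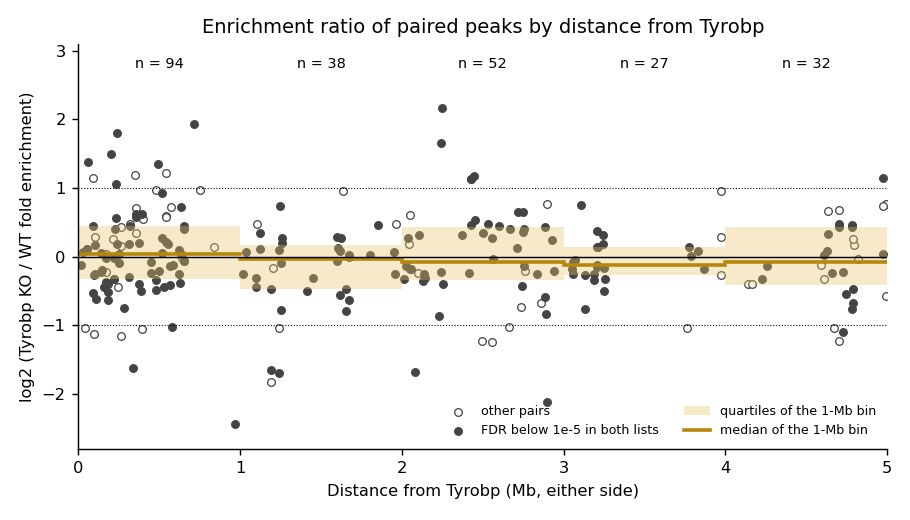
Log2 ratio of *Tyrobp* KO over WT fold enrichment for the 243 pairs against distance from *Tyrobp* on either side (Mb), filled where the FDR was below 1e-5 in both lists. Ochre lines are medians and shaded bands quartiles of each 1-Mb bin, dotted lines mark a 2-fold difference, and the medians stay between -0.12 and 0.04.

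The genes of the region were also grouped by function. For comparison with the counts below, 56.8% of all protein-coding genes had a WT peak, 58.1% a *Tyrobp* KO peak and 62.0% a peak in either list, and 7.16% of all pairs were at least 2-fold higher and 6.40% at least 2-fold lower. Of 18 immune and adaptor genes, 8 had a WT peak and 5 a *Tyrobp* KO peak, and 10 had none in either list, among them *Tyrobp*, *Hcst*, *Nfkbid* and *Axl*, a receptor for the clearance of dying cells. *Nfkbib*, an inhibitor of NF-kB, had the highest WT value, 25.0, at a peak with 14.4 in *Tyrobp* KO mice, and an overlapping peak with 20.8 and 15.0. *Zfp36*, which promotes decay of cytokine mRNA, had 14.6 and 17.6. *Cd22* had 13.7 in WT mice and no *Tyrobp* KO peak. *Map4k1*, a kinase of immune cells, had 11.7 and no *Tyrobp* KO peak, and *Lgals7* was the third gene with a WT peak alone. The log10 FDR of the *Cd22* peak was -3.78, that of the *Map4k1* peak -2.05 and that of the *Lgals7* peak -1.03, so all were weakly called. Over the series, 10.2% of the genes with a WT peak had none in the *Tyrobp* KO list. Of the group's 7 pairs 1 was 2-fold lower (*Tgfb1*) and 0 were 2-fold higher. The amyloid precursor family and gamma-secretase had both members measured. *Aplp1* is given above, and *Psenen*, the PEN-2 subunit of gamma-secretase, had 2.46 and 2.15 over the same 90 bases of its 3′ UTR.

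Among the 6 myelin and glia genes, 5 had peaks in both lists and *Slc7a10*, a neutral amino acid transporter of astrocytes, had none. Besides *Mag* and *Prx*, *Sirt2*, a deacetylase of oligodendrocytes, had 6.09 in WT and 7.39 in *Tyrobp* KO mice in its 3′ UTR, and *Lgi4*, a secreted glial ligand, 3.18 and 3.04. The 10 pairs of the group, with 1 at least 2-fold higher and 1 at least 2-fold lower, had a median log2 ratio of 0.34. Of the 9 channel and transporter genes in the region, 5 had a peak. *Ryr1* had 21.5 and 11.4 as its highest values, at different peaks. *Fxyd1*, phospholemman, a regulator of the sodium pump, had 1.89 and 6.67, likewise at different peaks. These *Fxyd1* peaks had a log10 FDR of -40.3 in WT and -0.538 in *Tyrobp* KO mice, and neither had a partner. *Slc7a9*, also on the list, lies outside the region. Of 5 pairs in this group 2 were at least 2-fold lower, both in *Kcnk6*. The *Kcnk6* pair not given above had 6.51 in WT and 1.83 in *Tyrobp* KO mice, over 419 and 60 exonic bases. Its *Tyrobp* KO peak was weakly called, with a log10 FDR of -0.761.

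All 13 synapse and neuron genes had a WT peak and 12 a *Tyrobp* KO peak. The exception was *Dll3*, a Notch ligand, with 7.81 in WT mice at a weakly called peak (log10 FDR of -0.79). Their 26 pairs had a median log2 ratio of -0.13, with *Lrfn3* at least 2-fold higher and *Sipa1l3* at least 2-fold lower. *Kctd15*, a regulator of neural crest formation, had 27.3 as its highest WT value and 21.7 in *Tyrobp* KO mice. *Lrfn1* had 24.8 and 20.9, and *Chst8*, a sulfotransferase, 23.1 and 21.0. Of 12 signalling genes 11 had peaks, and *Akt2*, a kinase of insulin signalling, had none. The 19 pairs of this group had a median of -0.10, with *Tgfb1* as the 1 at least 2-fold lower. *Dyrk1b*, a kinase of the DYRK family, had 27.9 and 15.3.

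Of 18 chromatin and transcription genes, 14 had peaks in both lists, and their 22 pairs had a median log2 ratio of -0.22, with 1 at least 2-fold higher and 2 lower. Besides *Fbl*, *Sertad3*, a transcriptional coregulator, had 22.7 in WT and 19.7 in *Tyrobp* KO mice as its highest value. *Cebpa*, a master regulator of myeloid cells, had 20.9 and 29.2 in its 3′ UTR. A 61-base peak in its 5′ UTR had 15.6 and 6.67, with a log10 FDR of -3.08 and -0.538, and was thus weakly called. *Sertad1*, of the same family as *Sertad3*, had 14.9 and 17.7. The 24 zinc finger genes were the largest group, 23 of them with peaks in both lists, 61 WT and 74 *Tyrobp* KO peaks. *Zfp36*, a CCCH protein and no repressor of the KRAB kind, is among the 24 by its name. Their 48 pairs had a median log2 ratio of 0.11, with 3 at least 2-fold higher and 5 lower. Among the 39 of these with an FDR below 1e-5 in both lists, 3 were higher and 1 lower, beside 4.61% and 3.67% of all such pairs. *Zfp790* had 20.2 and 18.5 at its strongest WT peak, *Zfp27* 19.3 and 36.9, and *Zfp850* 15.0 and 12.7. Of these pairs, the 2 of *Zfp850* at least 2-fold higher overlap each other.

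Of 11 genes of energy metabolism, 8 had a peak, and their 6 pairs had a median log2 ratio of 0.36, with *Cox6b1* at least 2-fold higher. *Gapdhs*, a glycolytic enzyme known from sperm, had 7.57 and 10.3, *Timm50*, of the mitochondrial import machinery, 7.45 and 9.27, and *Pepd*, a dipeptidase, 4.04 and 4.30. Of 17 cytochrome P450 genes and pseudogenes of the *Cyp2* family, *Cyp2s1* alone had peaks, with 4.88 and 4.84 as its highest values, at different peaks. These medians are over few pairs that share genes and reads, and each stands beside the median of 0.05 over all pairs.

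The 53 rows of the authors' comparison table that lie in this region, from 47 genes, were 0.94% of that table, against 0.97% of the WT and 0.982% of the *Tyrobp* KO list. Of these rows, 36 overlapped peaks of both lists, 11 a WT peak alone and 6 a *Tyrobp* KO peak alone. The same split over the whole comparison is not given here, so it cannot be called particular to the region. Within 1 Mb of *Tyrobp* lay 27 of the 53, beside 122 of the 326 WT and 126 of the 343 *Tyrobp* KO peaks. Below the gene lay 32 of the 53 and above it 21.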

How the data were processed

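Hippocampal MeRIP-seq libraries of 6-month-old WT and *Tyrobp* KO mice were analysed from the deposited tables. The authors trimmed reads with fastp, mapped them with HISAT2 to the mouse genome (Ensembl v96, GRCm38), called peaks with exomePeak and annotated them with ChIPseeker; versions are not given in the sources used here. The authors deposited counts of raw and valid reads, and the percent of bases of each quality and of G and C, per library. The deposited peak lists give for each peak the ratio of IP over input (fold enrichment), the p-value, its log10 (also of the FDR) and a score. The comparison table also holds the authors' log2 fold change, p-value and log10 FDR between genotypes, which were not used.

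Rows were taken by position. Peaks of the lists were shared when they overlapped by 1 bp, introns included, and were paired 1 to 1 within a gene by largest overlap, and the log2 ratio of their fold enrichments was computed without a pseudocount. No test was made, because replicates were pooled upstream. The members, gene lists and limits were chosen with earlier results of these data known. Genes named are those within 100 kb of *Tyrobp*, the 8 largest rises and 8 largest falls among pairs with an FDR below 1e-5 in both lists, the 5 highest peaks of each list, the 5 highest without a partner, and up to 4 of each functional group by WT enrichment; others are named as chosen after their values were seen, or as members without a peak or beyond a threshold. RefSeq matched 145 of 165 gene IDs of the WT and 144 of 161 of the *Tyrobp* KO peaks. Sequences were to be shown only with a genome; in its place transcript starts of the RefSeq table were used, a choice made after the data were seen. The matching step was checked on simulated peaks with known partners. The software was Python 3.11.15, numpy 2.4.6, pandas 2.3.3, scipy 1.17.1 and matplotlib 3.10.9.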

Additional observations from a re-analysis of the deposited data

How the results depend on the processing

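No paired analysis was possible because the lists pool the 3 replicates of a genotype, and for the same reason no replicate could be left out. A peak-calling FDR below 1e-5 left 213 WT and 215 *Tyrobp* KO peaks, a region of 1 Mb on either side held 121 and 125, and one of 2.5 Mb 212 and 213. Shared peaks were 64.1% of WT and 61.2% of *Tyrobp* KO peaks with a reciprocal overlap of 50%, and 90.6% and 90.2% with both lists at an FDR below 1e-5. With a ratio of 1.5 in place of 2, 37 pairs were higher and 34 lower in *Tyrobp* KO mice. The 20 pairs at least 2-fold lower became 12 with a reciprocal overlap of 50%, 8 with an FDR below 1e-5 in both lists and 12 with 1 pair per gene, and under these 3 settings the pairs at least 2-fold higher were 12, 12 and 13. The share of WT peaks in the 3′ UTR was 52.0% by exonic length, and at an FDR below 1e-5 it was 57.7% in WT and 57.7% in *Tyrobp* KO mice. The median log2 ratio stayed between -0.12 and -0.01 under the 5 alternatives tried. Depth per peak is unknown, so a small ratio cannot be given an error.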

Other observations

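Among fold enrichments below 10, a few values repeated many times, mostly in peaks with an FDR of 1e-5 or more. In the *Tyrobp* KO list of this region 17 peaks had 6.67, 15 had 7.62, 10 had 8.58 and 9 had 9.53, and in the WT list 11 had 6.84, 11 had 7.81, 10 had 8.79 and 6 had 9.77. Of these, an FDR below 1e-5 was listed for 2, 1, 0 and 1 of the *Tyrobp* KO peaks and for 2, 2, 0 and 2 of the WT peaks, in the same order. Within rounding (0.0051), these are whole multiples, 7 to 10 times, of 0.9766 in the WT and 0.9529 in the *Tyrobp* KO list. Of peaks below 10 with an FDR of 1e-5 or more, 44.0% in WT and 55.0% in *Tyrobp* KO mice were such multiples, against 4.73% and 4.76% of those with an FDR below 1e-5. Over the whole lists the shares were 45.6% and 46.8%, against 4.85% and 4.75%. The steps were read from the lists, and their cause was not tested. Peaks of *Sdhaf1* (6.84), *Lgals7* (8.79) and *Dll3* (7.81) in the WT list, and of *Fxyd3* (6.67) in the *Tyrobp* KO list, hold such values. So do peaks of pairs named above among the largest ratios, *Cox6b1* in the *Tyrobp* KO list (6.67) and *Supt5* in the WT list (9.77). Values of 10 or more were not searched for such multiples beyond 10 times the step.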
